A study of Mus musculus with 33 samples.

Results

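The genes described here are Hsf1, the main transcription factor of the heat shock response, and 9 heat shock proteins that assist protein folding: Hspa1a, Hspa1b, Hspa8, Hspa5, Hsp90aa1, Hsp90ab1, Hspb1, Dnajb1 and Hsph1. They were taken by name. All 10 were found among the 38355 genes of the count tables of aged mice, and they correspond to 9 of the 40678 loci of the FPKM tables of young mice, in which Hspa1a and Hspa1b form 1 joined locus. The tissue was the CA1 region of the hippocampus, the brain area for spatial memory, and the agent was JQ1, an inhibitor of the chromatin readers of the BET family. Aged animals were 8 to 10 months old and were injected intraperitoneally for 10 days, with 50 mg/kg JQ1 in 6 APP mice and with vehicle (10% DMSO) in 6 APP and 4 wild-type (WT) mice. Young WT mice (C57B/6JRj, 3 months old) received either JQ1 at 50 mg/kg or vehicle (10% DMSO) intraperitoneally for 13 days, with 8 mice each. The APP mice were of the line APP/PS1-21 on a C57B/6 background, in which the neuronal Thy1 promoter drives transgenes that include mutant human APP, so the genotype is a model of amyloid pathology rather than of the whole disease. The strain label of the aged WT mice also names APP/PS1-21 and their titles call them WT. According to the methods, animals had been trained in the water maze and were killed a day after the last test. By the same methods, the young mice were males and the aged mice used for behavior were females. Age, sex, training, days of injection and processing into counts or FPKM therefore differ together between the experiments and cannot be told apart. Between the APP and the young WT mice, genotype differs along with them.

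In unstressed cells, Hsf1 is held inactive by chaperones of the Hsp70 and Hsp90 families. When unfolded proteins occupy these chaperones, Hsf1 forms trimers, binds heat shock elements made of inverted repeats of GAA, and raises transcription of the inducible genes, among them Hspa1a, Hspa1b, Hspb1, Dnajb1 and Hsph1. Hsf1 itself is regulated mostly at the protein level, so its mRNA is not a measure of its activity. Hspa8 and Hsp90ab1 are abundant in every cell without stress, and Hspa5, also known as BiP, serves the endoplasmic reticulum and is induced by the unfolded protein response.

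The promoters of 6 of the 10 genes were listed in RefSeq (GRCm38.p6), namely those of Hspa1a, Hspa1b, Hspa5, Hspb1, Dnajb1 and Hsph1. The 250 bases before the first transcribed base are shown for Hspa1a and Hspa1b, since both carry a heat shock motif and are nearly the same sequence, and for Hspb1, the gene that stood highest in 1 mouse. Capitals mark GAANNTTC, the 2-unit heat shock motif, and all stretches are printed 5′ to 3′ in the direction of transcription.
Hspa1a (chr17:34972157-34972406, minus strand): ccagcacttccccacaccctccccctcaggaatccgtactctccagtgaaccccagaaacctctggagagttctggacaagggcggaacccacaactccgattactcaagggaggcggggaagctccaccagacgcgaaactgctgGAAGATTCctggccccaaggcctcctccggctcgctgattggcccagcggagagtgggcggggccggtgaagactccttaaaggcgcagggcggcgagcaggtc
Hspa1b (chr17:34959239-34959488, minus strand): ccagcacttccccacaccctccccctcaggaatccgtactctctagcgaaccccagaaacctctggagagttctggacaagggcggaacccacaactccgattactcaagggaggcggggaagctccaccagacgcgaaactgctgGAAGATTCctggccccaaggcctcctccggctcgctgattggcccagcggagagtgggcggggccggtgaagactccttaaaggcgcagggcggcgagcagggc
Hspb1 (chr5:135887669-135887918, plus strand): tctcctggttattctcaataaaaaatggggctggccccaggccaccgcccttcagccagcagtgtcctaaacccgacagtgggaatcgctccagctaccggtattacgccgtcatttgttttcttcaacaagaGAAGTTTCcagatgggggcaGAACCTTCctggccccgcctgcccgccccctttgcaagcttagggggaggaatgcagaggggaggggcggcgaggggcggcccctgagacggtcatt
The Hspa1a and Hspa1b stretches differed at 3 of 250 bases, an identity of 98.8%. In both, the motif began 104 bases before the start, and in Hspb1 the nearer of 2 motifs began 97 bases before it. Hsph1 had the other 2-unit form, TTCNNGAA, while neither form was found before Hspa5 or Dnajb1. Both forms read the same on the other strand and do not overlap each other in these stretches. Among 32851 promoter stretches of this length, 6.69% held GAANNTTC, 7.17% held TTCNNGAA and 12.8% held either. A match of letters does not show a bound site. In GRCm38, Hspa1a lies at chr17:34969190-34972156 and Hspa1b at chr17:34956436-34959238, both on the minus strand, Hspb1 at chr5:135887919-135889563 and Hsf1 at chr15:76477422-76501913, both on the plus strand.

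The aged libraries held 14605459 to 25339482 gene-assigned reads, so that 3 reads, taken as the limit of detection, correspond to at most 0.2054 CPM (counts scaled to a common library size). Such limits cover counting error only. FPKM hold no counts, so the depth of the young libraries is unknown. The markers of CA1 pyramidal cells Wfs1, Fibcd1 and Mpped1 were detected in both experiments. Aged WT replicate 4 held choroid plexus markers at a sum of 3168 CPM, against 141.8 at most among the APP JQ1 mice, and aged WT replicate 2 was not analysed here. The library labelled APP JQ1 replicate 4 went against its genotype label. The level of Thy1, the gene whose promoter drives the transgenes, was 819.8 CPM, against 1618 to 2342 in the other 11 APP libraries and 841 to 1070 in WT. The astrocyte marker Gfap (322 CPM) and the microglial marker C1qa (44.0 CPM) also lay far below the other APP libraries, which began at 1262 and 106 CPM. The library was kept under its label. Without it, edgeR again called 0 of the 10 genes in each aged comparison, and the differences between JQ1 and vehicle in APP mice that moved by over 1.5 times are given beside their main values.

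Measured per length, Hsp90ab1 was the most abundant of the group in the aged mice, and Hspa1a, Hspa1b and Hspb1 had the lowest means in every set of mice. In APP vehicle mice the mean level per kb of exon was 520.1 ± 31.8 CPM (SD, n = 6) for Hsp90ab1, followed by 63.2 ± 8.58 for Hspa5 and 39.6 ± 7.88 for Hsph1. The ranges of Hsph1, Hsp90aa1, Hspa8 and Dnajb1 overlapped from each to the next, so their order was not resolved, and Hsf1 followed at 9.02 ± 0.44. Hsf1 depended on the length used: per kb of its longest transcript it stood at 20.4 ± 0.999 CPM, overlapping Dnajb1 at 17.4 ± 1.55. Hspb1 reached above Hsf1 in a single mouse, described further on. The inducible Hsp70 genes stood at 1.17 ± 0.30 CPM per kb for Hspa1b and 1.07 ± 0.21 for Hspa1a, which overlapped. In APP vehicle mice between 50 and 107 reads were counted for Hspa1b and 50 to 96 for Hspa1a, against 27010 to 41073 for Hsp90ab1.

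In young vehicle mice, Hsp90ab1 (711 ± 52.4 FPKM, SD, n = 8) and Hspa8 (646 ± 87.2 FPKM) overlapped at the top, and Hsp90aa1 followed at 385 ± 19.5 FPKM. Hspa5 (76.5 ± 5.54 FPKM) and Hsph1 (73.4 ± 9.27 FPKM) overlapped, as did Hspb1 (2.42 ± 0.83 FPKM) and the joined Hspa1a/Hspa1b locus (2.14 ± 0.35 FPKM) at the bottom. Dnajb1 (18.2 ± 1.06 FPKM) and Hsf1 (12.8 ± 0.93 FPKM) lay between these pairs with ranges of their own. Hspa8 and Hsp90aa1 thus held a higher place in the young table than in the aged one.

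The count and FPKM tables were normalized separately, so levels were set side by side and not tested. The ratio of aged CPM per kb to young FPKM, both in WT vehicle mice, had a median of -0.67 on the log2 scale over 11877 matched genes. For Hspa8 it was -5.62, and only 43 of these genes were lower. For Hsp90aa1 it was -3.30, lower than in all but 320 genes. Hsf1 (-0.70), Hsph1 (-0.82), Hspb1 (-0.98), Hsp90ab1 (-0.35), Hspa5 (-0.24) and Dnajb1 (-0.21) lay near the median. Of the 50-base words in the longest transcript, 52.7% of Hspa8 and 58.5% of Hsp90aa1 recurred in other genes. Most of these matches lay in Gm15459 for Hspa8 and in the pseudogene Gm12346 for Hsp90aa1. Gm12346 itself held 162 reads in the 16 aged libraries, and htseq counts leave out reads that align to several places. For Hspb1 the share was 51.6%, for Hspa1a 66.3% and for Hspa1b 62.3%, while Hspa5, Hsph1 and Hsf1 shared no word. The aged levels of the genes with shared words are therefore uncertain, and the part of read sharing in these ratios was not tested.

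**Figure D1:**
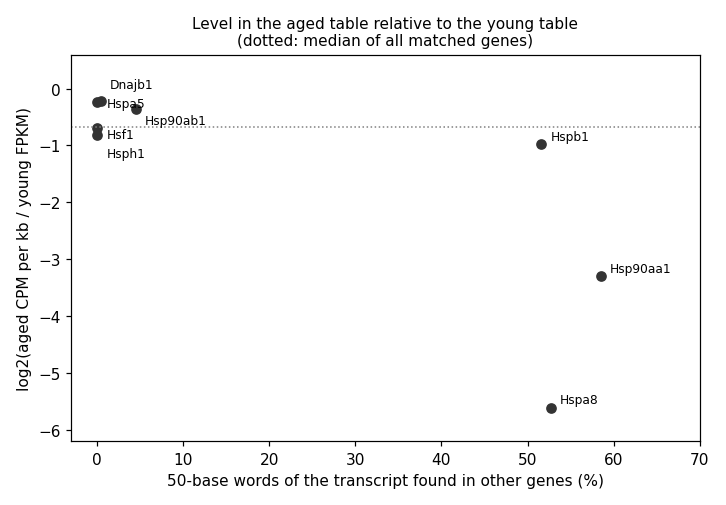
Each point is 1 heat shock gene, with the percentage of its 50-base transcript words found in other genes on the x axis and the log2 ratio of its aged WT vehicle level (CPM per kb) to its young WT vehicle level (FPKM) on the y axis. Hspa8 at -5.62 and Hsp90aa1 at -3.30 lie far under the dotted median of all matched genes at -0.67. Hspb1, with 51.6% of words shared, lies at -0.98. Hspa1a and Hspa1b, joined in 1 young locus and with the highest shares of shared words, are not shown.

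The main question was whether JQ1 changed the heat shock genes in APP mice. No gene of the group passed an adjusted p-value of 0.05 (edgeR's quasi-likelihood test, Benjamini-Hochberg over 16962 genes), where 1.08% of all genes tested did. At an unadjusted p-value under 0.05 stood 2 of the 10, Hsf1 and Hspb1, against 17.6% of all genes. DESeq2 called 1 of 9, Hsf1, and gave Hspb1 no adjusted p, where it called 5.33% of all genes with an adjusted p. The median log2 difference of the 10 genes was 0.05, and that of all genes was 0.00. The interval of the difference lay within 0.5 on the log2 scale in either direction for Hspa5, Hsp90aa1, Hsp90ab1, Dnajb1 and Hsph1 and was wider for the others.

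Hsf1 was the gene nearest to a call by edgeR. The paper lists Hsf1 among the genes lowered by JQ1 in APP mice, at an adjusted p under 0.05. Its level ranged from 36.6 to 55.6 CPM (median 51.6) in JQ1-treated APP mice and from 59.9 to 68.7 CPM (median 64.3) in vehicle-treated APP mice. All 6 JQ1 libraries lay below all 6 vehicle libraries, a separation that 2.03% of all genes tested showed in either direction and 1.15% in this one. Hsf1 was the only 1 of the 10 to show it. The fitted log2 difference was -0.41 ± 0.12 (SE), with a 95% interval of -0.66 to -0.15 and an adjusted p of 0.098 by edgeR. The call depended on the test and on single libraries: DESeq2 gave an adjusted p of 0.0389, and edgeR without aged WT replicate 1 gave 0.0316. On simulated data DESeq2 had more false calls among its calls than its threshold nominally allows, and more than edgeR. The simulated counts used edgeR's own fitted spread and no effects of single libraries, so they cannot tell whether the Hsf1 call was false. Without the library labelled APP JQ1 replicate 4, the difference was -0.34 with an adjusted p of 0.208 by edgeR.

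**Figure D2:**
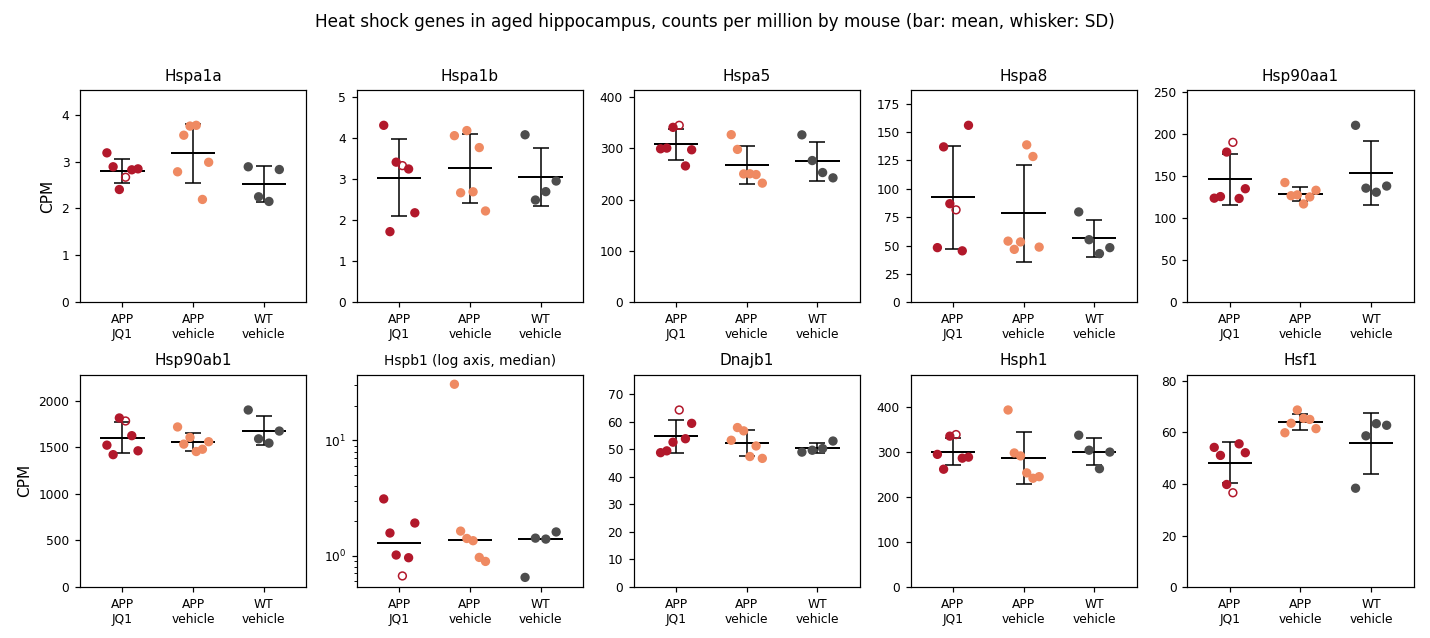
Each panel shows 1 gene in CPM (y axis, from 0 except for Hspb1 on a log axis) in JQ1-treated APP, vehicle-treated APP and vehicle-treated WT mice, each point being 1 mouse and the bars mean and SD (for Hspb1 the median). The open circle is the library labelled APP JQ1 replicate 4; Hsf1 is the panel in which the APP groups do not overlap, and Hspb1 shows a single mouse at 30.7 CPM.

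A property of the libraries moved with Hsf1. For each aged library, the median log2 deviation of the fifth of genes highest in GC content (55.5% and above) was set against that of the fifth lowest in GC content (44.0% and below). This GC trend was -0.42 to 0.03 in the JQ1-treated APP mice and 0.13 to 0.35 in the vehicle-treated APP mice, so that these groups were separated by it too. In the WT mice it was -0.43 for replicate 1 and 0.03, 0.09 and 0.14 for replicates 3, 4 and 5. The 3 libraries with the lowest trend, APP JQ1 replicate 3, the library labelled APP JQ1 replicate 4 and aged WT replicate 1, were the 3 with the lowest Hsf1, at 39.8, 36.6 and 38.4 CPM. The other 3 WT mice had 58.7, 63.4 and 62.8 CPM.

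Over the 16 aged libraries with group means removed, Hsf1 and the GC trend had a Pearson correlation of 0.95, a description over points that share normalization and processing. An absolute correlation above 0.7 with the trend was found for 13.7% of 16770 genes. With the GC and length trends removed, the Hsf1 difference became -0.32 with an adjusted p of 0.267 by edgeR. With the 3 low libraries left out together, it was -0.27 with an adjusted p of 0.0931 by edgeR. The longest transcript of Hsf1 has a GC content of 53.4%, and the part of the GC trend in the Hsf1 difference was not resolved by these fits.

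**Figure D3:**
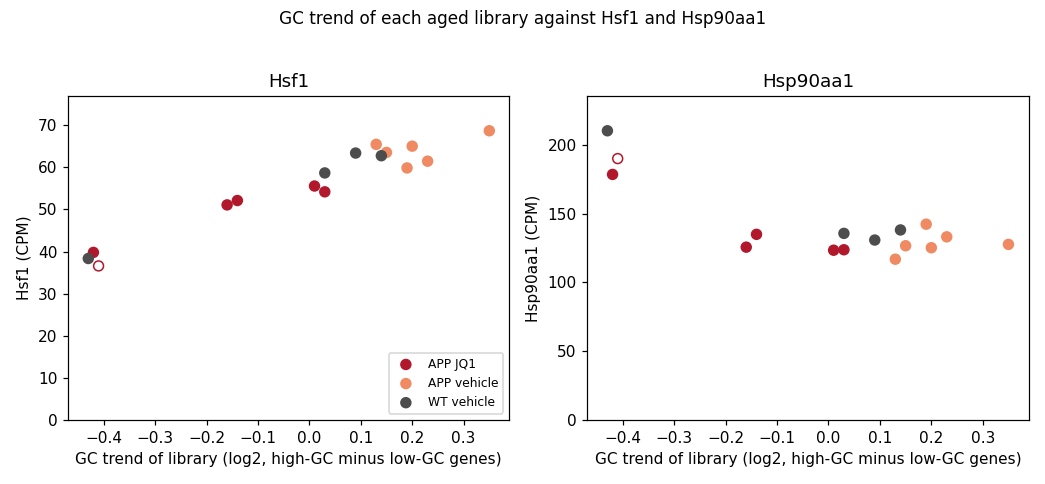
Each point is 1 aged library, placed by its GC trend (x axis, log2) and by the CPM of Hsf1 (left) or Hsp90aa1 (right), with colors for the groups and an open circle for the library labelled APP JQ1 replicate 4. The 3 libraries near -0.4 have the lowest Hsf1 and the highest Hsp90aa1 levels.

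Hsp90aa1, the stress-inducible cytosolic Hsp90, ran opposite to Hsf1 in these libraries. The 3 libraries with the lowest GC trend had its highest levels, 178.6, 190.1 and 210.4 CPM, and the other 13 lay between 116.9 and 142.4 CPM. Across the 16 libraries with group means removed, Hsf1 and Hsp90aa1 had a correlation of -0.97, which was -0.61 without those 3 libraries. In the 16 young mice it was 0.12, so the relation of the aged libraries was not seen there. The JQ1 difference of Hsp90aa1 in APP mice was 0.18 ± 0.13, with an adjusted p of 0.49 by edgeR, and it was 0.10 without the library labelled APP JQ1 replicate 4, 0.03 with the GC and length trends removed and -0.02 without the 3 libraries.

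Hsp90ab1, the constitutive cytosolic Hsp90, ranged from 1422 to 1816 CPM (median 1575) with JQ1 and from 1456 to 1720 CPM (median 1548) with vehicle in APP mice. The groups overlapped almost fully, and the difference of 0.04 had an interval of -0.13 to 0.21 (0.01 without the library labelled APP JQ1 replicate 4).

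Hspa5, the Hsp70 of the endoplasmic reticulum, ranged from 265 to 344 CPM (median 299) with JQ1 and from 232 to 326 CPM (median 250) with vehicle in APP mice. The groups overlapped, and the log2 difference was 0.20 ± 0.10 (adjusted p = 0.29, edgeR), or 0.11 with the GC and length trends removed. Its partner in the same compartment, Hsp90b1, had a difference of 0.21 ± 0.08 (adjusted p = 0.18, edgeR).

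The inducible Hsp70 genes were low and did not differ beyond their spread. Hspa1a ranged from 2.40 to 3.19 CPM with JQ1 and from 2.19 to 3.77 CPM with vehicle in APP mice, and Hspa1b from 1.72 to 4.31 and from 2.23 to 4.19 CPM. Because most of their words are shared, the counts were also summed, and the sum differed by -0.14 on the log2 scale (adjusted p = 0.67, edgeR). The separate differences, -0.18 for Hspa1a and -0.11 for Hspa1b, turned to 0.04 and 0.11 with the GC and length trends removed.

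Hspa8, the constitutive cytosolic Hsp70, was uneven between the aged mice, in steps. In 9 libraries it lay between 43.0 and 55.2 CPM, in 3 between 79.7 and 86.9 CPM, and in 4 between 128.5 and 156.0 CPM. The middle 3 were the libraries with the lowest GC trend, and the highest 4 were APP JQ1 replicates 2 and 6 and APP vehicle replicates 4 and 5. These levels did not follow the groups, and the JQ1 difference was 0.24 with an interval of -0.57 to 1.05. With single libraries left out it lay between 0.03, without APP JQ1 replicate 6, and 0.49, without APP vehicle replicate 4, both among the highest 4. In the 16 young mice the levels ran from 548 to 825 FPKM without steps of this size. Whether the steps lie in the transcript or in which reads could be placed was not tested.

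Hspb1, the small heat shock protein Hsp27, was near the limit of use in all libraries but 1. APP vehicle replicate 1 held 30.7 CPM (695 reads), and the other 15 aged libraries held 0.65 to 3.11 CPM. The fitted JQ1 difference in APP mice, -1.98 ± 0.89 (adjusted p = 0.26, edgeR), rested on that mouse and became 0.31 (adjusted p = 0.715, edgeR) without it. The same mouse had the highest Hsph1 (394 CPM, others 242 to 339), Bag3 (39.9 CPM, others 9.26 to 19.6) and Hspb8 (34.9 CPM, others 4.55 to 25.7) of the 16. Bag3 and Hspb8 form a complex with Hsp70 that directs damaged proteins to autophagy. Dnajb1, at 53.2 CPM, and Hspa1a, at 2.78 CPM, were within the range of the others there. The mouse also had the highest levels of the activity-regulated genes Fos (61.3 CPM, others 5.06 to 26.7) and Npas4 (75.8 CPM, others 6.13 to 31.2) and of Gfap (5166 CPM, others 248.8 to 4077), and the part of these in its Hspb1 level was not tested.

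The co-chaperones were even between the APP groups. Dnajb1, which delivers substrates to Hsp70, ranged from 48.7 to 64.2 CPM with JQ1 and from 46.6 to 57.8 CPM with vehicle, and the difference was 0.07 with an interval of -0.10 to 0.23 (0.02 without the library labelled APP JQ1 replicate 4). Hsph1, an exchange factor for Hsp70, ranged from 262 to 339 CPM with JQ1 and from 242 to 394 CPM with vehicle, and its difference was also 0.07 (interval -0.17 to 0.30). It was 0.18 without APP vehicle replicate 1, the mouse with the highest Hsph1, and 0.04 without the library labelled APP JQ1 replicate 4.

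**Figure D4:**
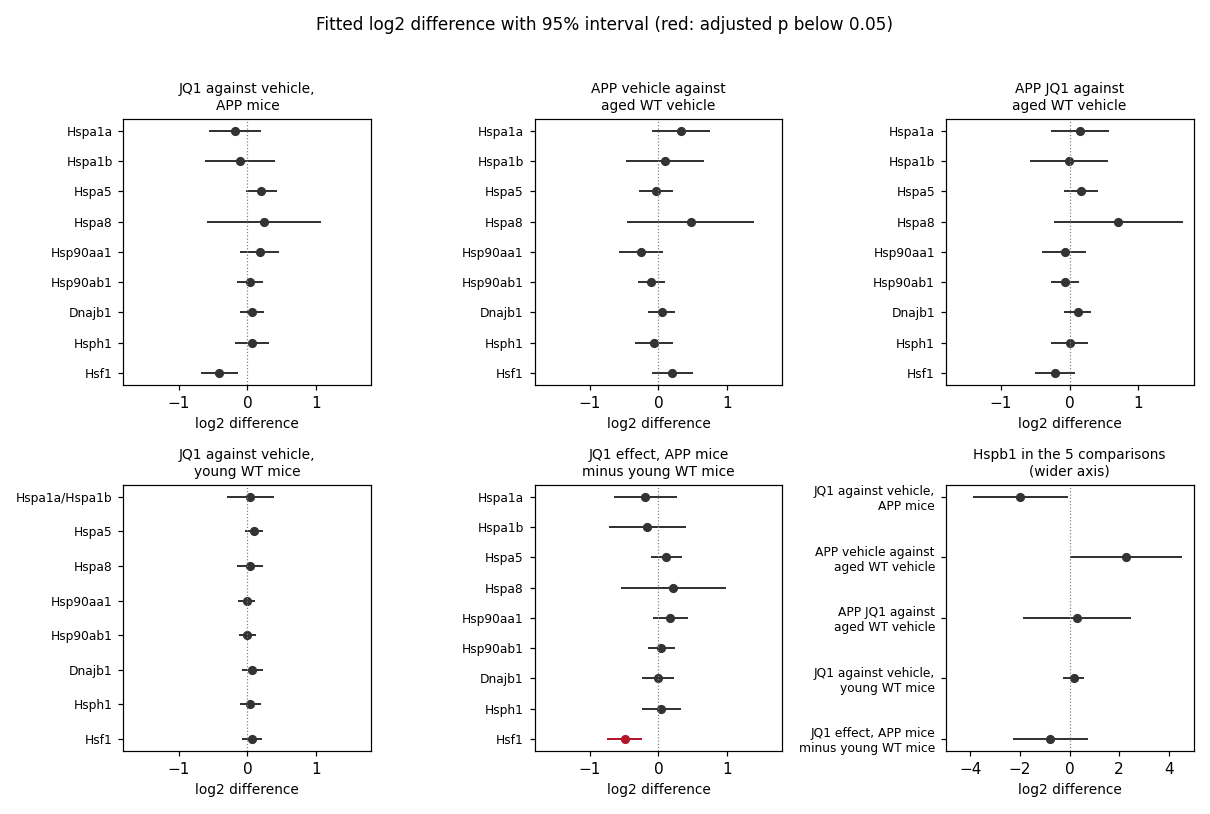
Points are fitted log2 differences and lines their 95% intervals (x axis) for each heat shock gene (rows) in the 5 comparisons, with Hspb1 in a panel of its own on a wider axis. Only Hsf1 in the comparison of the experiments is red (adjusted p = 0.022, limma), and the young WT intervals are the narrowest.

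The second question was whether the amyloid genotype changed these genes. Between vehicle-treated APP and WT mice, 0 of the 10 were called by edgeR, where 2.57% of genes were, and DESeq2 also called 0, against 4.41% of all genes with an adjusted p. Only Hspb1 stood under an unadjusted p of 0.05, against 14.4% of all genes, and its difference of 2.27 became -0.02 without APP vehicle replicate 1. No gene of the 10 had groups that did not overlap, against 6.99% of all genes in either direction and 2.05% with APP lower. Hsf1 differed by 0.20 (interval -0.08 to 0.48) and Hsp90aa1 by -0.26 (interval -0.56 to 0.05). The values were 0.04 and -0.08 without aged WT replicate 1, the WT library with the low GC trend. Hspa1a differed by 0.33 (interval -0.08 to 0.74), with 2.19 to 3.77 CPM in APP and 2.89, 2.25, 2.15 and 2.83 CPM in WT mice. This difference was 0.10 with the GC and length trends removed, and that of Hsf1 was then 0.08. Gfap and the microglial genes C1qa, Csf1r and Cx3cr1 were called in the same fit. The astrocyte markers Aqp4, Aldh1l1, Gja1 and Slc1a3 and the microglial markers P2ry12 and Tmem119 were not. As these are bulk samples, a change in cell number and in RNA per cell cannot be told apart.

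JQ1-treated APP mice were also set against WT vehicle mice, using groups that both comparisons above contain. Again 0 of the 10 genes were called by edgeR, where 2.06% of genes were, 0 stood under an unadjusted p of 0.05 against 14.1% of all genes, and DESeq2 called 0, against 4.21%. The log2 difference of Hsf1 was -0.21 (interval -0.49 to 0.07), with 38.4 CPM in WT replicate 1 inside the range of the JQ1 mice. Without that WT library it was -0.36 (adjusted p = 0.107, edgeR). Hspa8 had the highest difference of the 10 at 0.71, with an interval of -0.21 to 1.63. The groups overlapped for all 10 genes, where 3.71% of all genes did not overlap in either direction and 1.17% with APP lower.

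In young WT mice JQ1 left no called difference in the 9 loci (limma on log2(FPKM + 0.1), 18420 loci), where 0.00543% of loci, a single one, passed. None of the 9 stood under an unadjusted p of 0.05, against 4.65% of all loci, and in 0 of them did the groups separate, against 0.0271% of all loci in either direction and 0.0163% with JQ1 lower. The intervals were narrow for the abundant genes. Hsp90ab1 differed by 0.00 (interval -0.11 to 0.11), Hsp90aa1 by -0.01 (-0.12 to 0.10) and Hspa5 by 0.09 (-0.02 to 0.21) on this log2 scale.

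Hsf1 was 11.1 to 15.045 FPKM (median 13.5) with JQ1 and 11.3 to 13.6 FPKM (median 13.2) with vehicle in the young mice. The groups overlapped, and the difference was 0.07 with an interval of -0.06 to 0.20. Hspa8 differed by 0.04 (-0.14 to 0.21), Dnajb1 by 0.07 (-0.07 to 0.21) and Hsph1 by 0.04 (-0.10 to 0.18). The low genes were less certain, the joined Hspa1a/Hspa1b locus at 0.04 (-0.28 to 0.37) and Hspb1 at 0.16 (-0.23 to 0.56). A fold change of low genes is understated by the added 0.1.

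**Figure D5:**
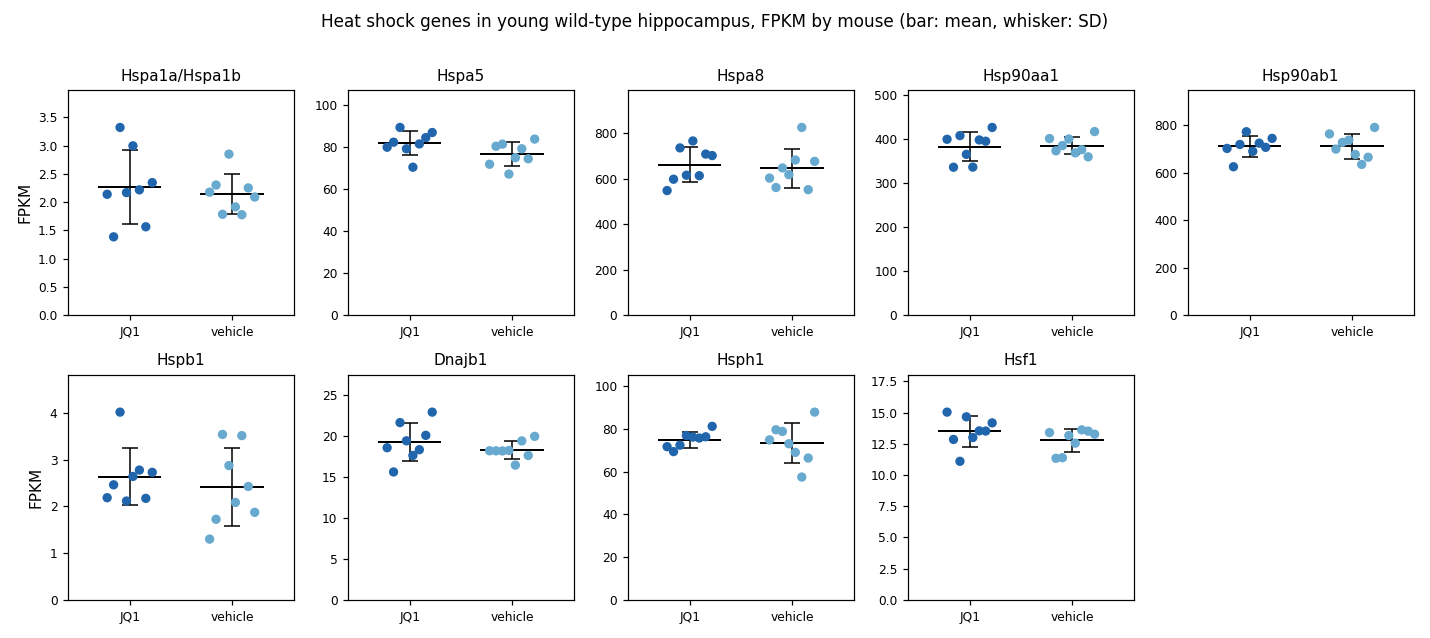
Each panel shows 1 heat shock gene or locus in FPKM (y axis from 0) in 8 JQ1-treated and 8 vehicle-treated young WT mice, with points for mice and bars for mean and SD. The groups overlap in every panel, with Hsf1 between 11.1 and 15.045 FPKM.

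The JQ1 effects of both experiments were then compared with each other by limma over 13111 genes matched by symbol. Genotype, age, sex, days of injection and processing differ together here, so a difference cannot be assigned to any of them. Of the 10 genes 1, Hsf1, was called, against 2.40% of all genes. Its JQ1 effect in APP mice was lower than in young WT mice by a log2 difference of -0.49 ± 0.12 (interval -0.73 to -0.26, adjusted p = 0.022, limma). With the library labelled APP JQ1 replicate 4 left out it was -0.42 (adjusted p = 0.0417, limma). Leaving out each single library in turn gave adjusted p of 0.00992 to 0.0498 by limma. Removing the GC and length trends gave -0.39 (adjusted p = 0.0504), and leaving out APP JQ1 replicate 3 together with the library labelled APP JQ1 replicate 4 gave -0.34 (adjusted p = 0.0796) by limma, so that the call was lost under both. On simulated data, a larger share of the calls of this test was false than its threshold nominally allows. The GC trend of the young libraries was -0.22 to 0.17 with JQ1 and -0.28 to 0.14 with vehicle, so it did not separate the young groups. For the other 9 genes the difference of the effects was between -0.77 (Hspb1) and 0.21 (Hspa8) with adjusted p of at least 0.48 by limma, the Hspb1 value being -0.02 without APP vehicle replicate 1, and both Hspa1a and Hspa1b were set against the same young locus.

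The wider chaperone network was read from 7 lists holding 111 genes, of which 109 could be tested in aged mice. In the JQ1 comparison of APP mice 0 rose and 0 fell by edgeR, where 1.08% of all genes were called. The median difference was 0.06 over the lists and 0.00 over all genes. DESeq2, which called 5.33% of all genes with an adjusted p, is not given for the lists. The lowest adjusted p was 0.065 by edgeR, for the Hsp90 co-chaperone Cdc37l1 (0.27 ± 0.07), which the paper lists among the genes raised there. In young mice 0 of 105 were called by limma, against 0.00543% of all loci, and in the comparison of the experiments 0 of 102, against 2.40% of all genes. In the paper, Pdia4 from these lists is among the genes lowered by JQ1 in WT mice. Between APP and WT vehicle mice 1 of 109 rose, Tsc22d4 (0.62 ± 0.14, adjusted p = 0.019, edgeR), where 2.57% of all genes were called. Tsc22d4 was in the list named for heat shock factors and Hsf1 regulators, and its bearing on Hsf1 was not tested.

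Individual partners of the 10 genes showed the same lack of calls by edgeR under JQ1 in APP mice. The mitochondrial chaperonins Hspd1 (0.02 ± 0.08) and Hspe1 (0.21 ± 0.21), the Hsp70 exchange factor Hspa4 (0.16 ± 0.09) and the J-domain protein Dnaja1 (0.10 ± 0.08) had small differences. The small heat shock proteins Cryab (-0.26 ± 0.24) and Hspb8 (-0.21 ± 0.38) and the Hsp70 co-chaperone Bag3 (-0.41 ± 0.23) were less precise, with APP vehicle replicate 1 among their samples.

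Within groups, the heat shock genes did not vary as 1 block. Over the 16 aged mice with group means removed, Hspa5 and Hsph1 had a correlation of 0.82, and Hsp90aa1 and Hsp90ab1 of 0.86. The first was 0.77 and the second 0.55 without the 3 libraries of low GC trend. Hspa1a and Hspa1b had a correlation of 0.00 in spite of their near-identical promoters, at 38 to 96 and 33 to 107 reads per library. In the young mice, Hsp90aa1 and Dnajb1 (0.78) and Hsp90ab1 and Hsph1 (0.78) were the pairs most alike. These are descriptions over mice that share normalization and library preparation.

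The genes most like Hsf1 over the aged mice were Mbd6 (0.98), Fam57b, Syvn1, Rps6kb2 and Rgl2 (0.96 each). The longest transcripts of all 5 were high in GC content, from 55.6% to 63.1%. Those most like the mean of Hspa1a, Hspa1b, Dnajb1, Hsph1, Hspb1, Hsp90aa1 and Hspa8 were Psmd5 (0.89), Sap30 (0.88), Rps3a3 (0.85), Trim16 (0.85) and Dstn (0.84).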

How the data were processed

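CA1 tissue of 16 aged and 16 young mice was analysed by RNA sequencing. Per the labels and methods, the authors deposited htseq counts of uniquely aligned reads per gene for the aged mice and FPKM per locus for the young mice. The submitters' processing notes name CASAVA 1.8.2, STAR, HTSeq, TopHat, Cufflinks and Cuffdiff with the build mm10, other versions being not given in the sources used here. Reads on no gene, 15.45% to 26.87% of uniquely aligned reads, stayed out of library sizes. The 10 genes and all lists were chosen with earlier results of these data known.

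The deposited counts were tested with edgeR 4.0.16 (R 4.3.3, quasi-likelihood, TMM, 3 aged groups in 1 fit, 16962 genes past filterByExpr). The deposited FPKM were tested as log2(FPKM + 0.1) with limma 3.58.1, over 18420 loci with at least 0.5 FPKM in 8 or more samples. The JQ1 effects of both experiments were compared with limma over 13111 genes matched by symbol. P-values were two-sided, adjusted by Benjamini-Hochberg over all features, with a threshold of 0.05. Each sample was taken as a mouse, and p-values measure the spread between these samples. The main edgeR and limma fits, DESeq2, and the edgeR fits with replicate block or GC and length correction were tested on simulated data.

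Named genes were the 10 members in every comparison, list genes past the threshold (at most 8 per comparison), always Hsp90b1, Bag3, Hspd1, Hspe1, Hspa4, Dnaja1, Cryab and Hspb8, and the 5 genes most correlated with Hsf1 or with the mean of 7 heat shock genes. Cdc37l1, Fos, Npas4 and the label and marker genes were named after their values were seen. Alternatives included DESeq2 1.42.0, other scalings, filters and pseudocounts, GC content and length corrections, a replicate block and leaving out libraries. The summed Hspa1a and Hspa1b counts, the removal of libraries with a low GC trend, and the separate fits and GC content correction of the compared effects were chosen after seeing the data. Some items are not reported here.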

Additional observations from a re-analysis of the deposited data

Results flagged for a closer look

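In 48 pairs of a gene and a group, the highest and lowest library were compared with the rest of their group by Dixon's criterion, and 4 stood apart, where chance flags about 1 in 20 groups (2.4 expected). Hsp90aa1 was at 210.39 CPM in aged WT replicate 1, against 130.87 to 138.22 CPM in the other 3 WT mice. Hspb1 was at 30.689 CPM in APP vehicle replicate 1, against 0.89 to 1.63 CPM in the other 5, and Hsph1 was at 393.83 CPM in the same mouse, against 242.0 to 298 CPM. Hspb1 was at 4.0216 FPKM in young JQ1 replicate 3, against 2.12 to 2.78 FPKM in the other 7.

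In the main test the JQ1 effect on Hsf1 differed between the APP and the young WT mice, by -0.49 on the log2 scale (adjusted p = 0.022, limma). The call held with each single library left out. It was lost by limma with GC content and length corrected (-0.39, adjusted p = 0.0504). It was also lost without APP JQ1 replicate 3 and the library labelled APP JQ1 replicate 4 (-0.34, adjusted p = 0.0796). On simulated data a larger share of the calls of this limma test was false than its threshold nominally allows. Those data held no library effects and cannot tell whether this call was false.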

How the results depend on the processing

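In APP mice JQ1 called 0 of the 10 genes by edgeR and 1, Hsf1, by DESeq2, and 0 to 1 with single libraries left out, the 1 being Hsf1 without aged WT replicate 1. In the comparison of the experiments the 1 call was Hsf1. It held with each single library left out (adjusted p 0.00992 to 0.0498, limma). The count became 0 with GC content and length corrected and 0 without APP JQ1 replicate 3 and the library labelled APP JQ1 replicate 4. Counts over all genes moved more, from 184 to between 25 and 749 for JQ1 in APP mice, from 436 to between 29 and 804 for genotype, from 349 to between 11 and 790 for JQ1-treated APP against WT mice, and from 315 to between 43 and 554 for the compared effects, and in young mice from 1 to between 0 and 2. DESeq2 gave Hspb1 no adjusted p.

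Same-numbered APP mice had a mean correlation of 0.124 (6 pairs, -0.107 to 0.342) and young mice of 0.026 (8 pairs), so numbers were not taken as a pairing. With the replicate block, 87 genes were called for JQ1 in APP mice, the Hsf1 difference was -0.41 (adjusted p = 0.166, edgeR), and against WT the JQ1-treated APP mice had reversed signs for Hspa1b (0.19), Hspb1 (-0.15) and Hsph1 (0.05).

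Signs also turned for differences near 0, none of them called, and the cause was not tested. With GC content corrected, this held for Hspa1a (0.05), Hspa1b (0.11) and Hsph1 (-0.01) under JQ1 in APP mice and for Hspa1b (-0.13) and Dnajb1 (-0.08) between genotypes. With length corrected too, the values were 0.04 and 0.11 for Hspa1a and Hspa1b under JQ1, -0.14 and -0.10 for Hspa1b and Dnajb1 between genotypes, and 0.07, 0.07, 0.06 and -0.02 for Hspa1a, Hspa1b, Dnajb1 and Hsph1 in the compared effects. Adding the block gave 0.05 and 0.08 for Hspa1a and Hspa1b under JQ1, -0.10 for Dnajb1 between genotypes, and 0.17, -0.07 and 0.00 for Hspa1b, Hspb1 and Hsph1 in JQ1-treated APP against WT mice. Without the 3 libraries of low GC trend, Hsp90aa1 (-0.02), Hsp90ab1 (-0.05) and Hsph1 (-0.02) turned under JQ1, Hspa5 (0.05) between genotypes and Hspa1b (0.08) against WT, and without the 2 JQ1 libraries among them Hsp90aa1 (-0.01), Hsp90ab1 (-0.05) and Hsph1 (-0.04) in the compared effects. Median-ratio rescaling gave 0.00 for Hsp90ab1 in young mice.

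With single libraries left out, signs turned for Hspa1b (-0.23 to 0.02) and Hspb1 (-2.32 to 0.31) under JQ1 in APP mice and for Hspa5 (-0.10 to 0.05) and Hspb1 (-0.02 to 2.50) between genotypes. Against WT, JQ1-treated APP mice gave -0.14 to 0.16 for Hspa1b, -0.17 to 0.11 for Hsp90aa1, -0.05 to 0.44 for Hspb1 and -0.07 to 0.05 for Hsph1. In young mice the ranges were -0.04 to 0.13 for Hspa1a/Hspa1b, -0.03 to 0.02 for Hsp90aa1, -0.02 to 0.02 for Hsp90ab1 and -0.01 to 0.08 for Hsph1, and in the compared effects -0.05 to 0.03 for Dnajb1 and 0.00 to 0.14 for Hsph1. Hsf1 kept its sign throughout under JQ1 in APP mice, at -0.45 to -0.34 with single libraries left out. Depth limits Hspa1a, Hspa1b and Hspb1 most.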
